A study of Mus musculus with 18 samples.

Results

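Hepatocyte secreted and acute phase proteins are the 39 genes described here, taken by symbol from the 55401 gene rows of each library: 9 carrier and binding proteins, 10 proteins of lipoprotein particles, 10 protease inhibitors and related plasma proteins, 7 clotting proteins and 3 complement and matrix proteins. All 39 were found. The list was drawn up with earlier results of these libraries known, among them the high level of Alb (albumin) in liver and its uneven level in lung, so the levels of its members are given as descriptions.

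The livers, lungs and colons came from C57BL/6N mice aged 7 weeks. RECTAS mice received RECTAS, a small molecule that modifies splicing, at 100 mg per kg body weight in 0.5% carboxymethyl cellulose by mouth, in 2 doses 4 h apart. Vehicle mice received the 0.5% carboxymethyl cellulose on the same schedule. Tissue was collected 8 h after the initial dose, and each of the 6 groups (3 tissues, RECTAS or vehicle) held 3 libraries of polyadenylated RNA, 18 in all. Nothing in the labels tells whether 3 libraries of 1 group are 3 animals, so p-values measure the spread between libraries, which may be technical.

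Hepatocytes make most of the proteins of blood plasma: albumin and other carriers, the proteins of lipoprotein particles, protease inhibitors, clotting factors and complement. The acute phase response is driven by interleukin 6 acting through STAT3 and interleukin 1 acting through NF-κB and C/EBP factors. These cytokines differ in the genes they raise. In the response the mRNA of serum amyloid A, fibrinogen, haptoglobin and orosomucoid rises, while albumin and transthyretin mRNA fall. These mRNAs are so abundant in hepatocytes that their presence in another tissue is also a measure of liver-type RNA there.

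Levels are in TPM, a transcript abundance scaled by length that sums to the same total in each library, so the read depth is unknown. Genes above 0 TPM numbered 19836 to 20502 in liver libraries, 24084 to 25227 in lung libraries and 23308 to 23874 in colon libraries. Among the libraries, vehicle liver 1 and RECTAS liver 3 each stood apart in several members, and the lung libraries differed widely in liver-type RNA in both groups. Values without them are also given for several members and for the medians.

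In liver, the 39 genes together held 245665, 251961 and 227039 TPM in the RECTAS libraries, against 230877, 244154 and 230403 TPM in the vehicle libraries, or 22.7% to 25.2% of all TPM in RECTAS livers and 23.0% to 24.4% in vehicle livers. The groups overlapped. Of the 50 genes with the highest mean TPM in vehicle liver, 20 were members, and 32 of the 39 members were above 1000 TPM there. Alb alone averaged 72763 ± 3899 TPM in RECTAS livers and 63655 ± 7191 TPM in vehicle livers (SD, n = 3 each). The acute phase genes Saa1, Saa2 and Orm2 were the only members with a vehicle mean below 100 TPM. Replicates were close, with a median coefficient of variation over the members of 6.23% in RECTAS livers and 8.65% in vehicle livers. It reached 41.9% for Saa2 in RECTAS livers and 43.5% for Saa1 in vehicle livers.

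**Figure D1:**
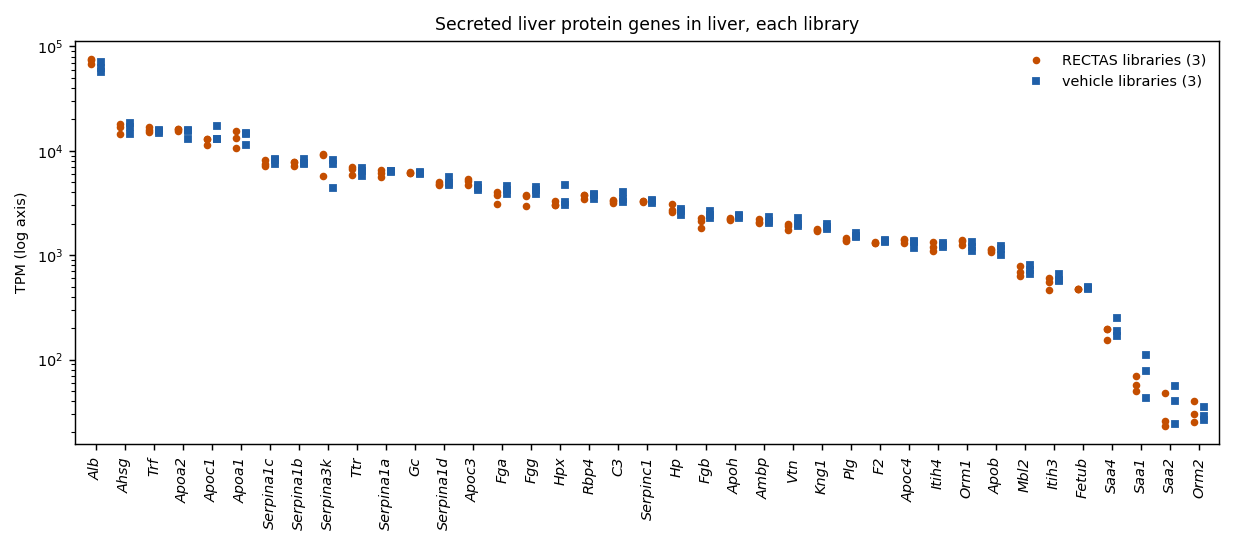
TPM of the 39 genes in each liver library on a log axis, in order of their mean in vehicle liver, with RECTAS libraries as circles left of the vehicle libraries as squares. Alb stands at 57361 to 75688 TPM, above every other member, and Saa1, Saa2 and Orm2 lie at the low end in both groups.

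Between RECTAS livers and vehicle livers no member passed the test, and all differences in mean level were small, with log2 differences between -0.30 (Saa1) and 0.29 (Serpina3k). By limma's moderated test with Benjamini-Hochberg adjustment over all 11944 genes tested, 0 of the 39 members were called at an adjusted p under 0.05, where 0.0167% of all genes were. At an unadjusted p under 0.05, 2 members were lower in RECTAS livers, the fibrinogen chains Fgg and Fgb, against a background of 8.03% of all genes. That count was 0 with no filter, with median ratio scaling, rescaled without mitochondrial genes and members, in a single fit of all 18 libraries and with a replicate block. It was also 0 without RECTAS liver 1, RECTAS liver 3 or vehicle liver 1, and 1 without vehicle liver 3. None (0) was higher, against a background of 3.59%. The groups did not overlap, with RECTAS lower, for 6 members (Fgg, Fgb, Plg, Kng1, F2 and Fetub), which is close to the 13% of all genes with that pattern. No member (0) had all RECTAS livers above all vehicle livers, where 5.75% of genes did.

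The log2 difference (RECTAS minus vehicle, on log2(TPM + 1)) was below 0 for 26 of 39 members, beside 60% of all genes. The median was -0.05 over the members and -0.04 over all genes tested. With median ratio scaling the split was 20 below 0 and 19 above. The members' roles differed in sign as a description: 6 of 7 clotting genes, 9 of 10 protease inhibitors, 7 of 10 lipoprotein proteins and all 3 complement and matrix genes were below 0, but 1 of 9 carriers. Under median ratio scaling the counts were 6 of 7 for the clotting genes, 5 of 10 for the protease inhibitors, 6 of 10 for the lipoprotein proteins, 2 of 3 for the complement and matrix genes and 1 of 9 for the carriers. Without vehicle liver 1, 22 of 39 members were below 0 and their median was -0.02. Without RECTAS liver 3, 23 of 39 were below 0 and the median was -0.04.

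**Figure D2:**
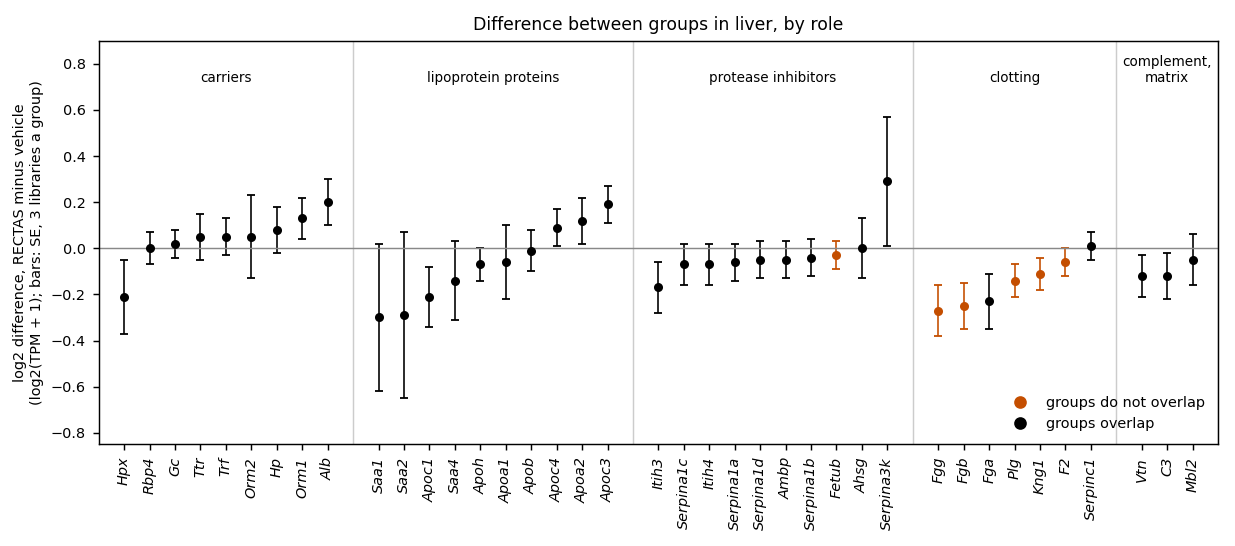
Log2 difference (RECTAS minus vehicle) of each of the 39 genes in liver, grouped by role, with bars of 1 standard error from the limma fit (3 libraries a group) and the 6 genes whose groups do not overlap in orange. The points lie between -0.30 and 0.29, and 5 of the 6 orange points are clotting genes.

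Among the carriers, Alb, the main protein of plasma (chr5:90460897-90476602, plus strand, GRCm38), had 74264, 75688 and 68337 TPM in RECTAS livers, against 62112, 71491 and 57361 TPM in vehicle livers. The RECTAS values were mostly the higher ones, but vehicle liver 2 lay above RECTAS liver 3. The log2 difference was 0.20 ± 0.10 (SE), with an adjusted p of 0.514 in limma. Its promoter is shown because Alb is the highest member in liver and the gauge of liver-type RNA used further on. The sequence is from RefSeq (GRCm38.p6, chr5:90460620-90460869, plus strand, the 250 bases before the transcription start), and capitals mark a match of GTTAAT, a core motif of the hepatocyte factor HNF1, at position -32 from the start.
Alb: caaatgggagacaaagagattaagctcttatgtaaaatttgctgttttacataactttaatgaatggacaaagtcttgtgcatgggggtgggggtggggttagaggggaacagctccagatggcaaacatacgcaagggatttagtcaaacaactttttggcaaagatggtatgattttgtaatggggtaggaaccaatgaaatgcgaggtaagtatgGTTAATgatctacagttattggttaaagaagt

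Promoter entries of 300 bases (250 before to 50 after the start) were matched for 30 of the 39 members. GTTAAT, on either strand, was in 10 of those 30 and in 7.1% of the 32851 promoters of the table. The 10 were Alb, all 4 Serpina1 genes, Fga, Fgb, F2, Vtn and Gc. A match describes the letters and is no evidence of binding.

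Trf (transferrin, the iron carrier) had 15100.5, 16811 and 15768 TPM in RECTAS livers, against 14864, 15837 and 15449.9 TPM in vehicle livers, and the groups overlapped (log2 difference 0.05 ± 0.08 (SE), adjusted p = 0.848 in limma). Hpx (hemopexin, which binds heme) had 3012, 3273 and 3031 TPM in RECTAS livers, against 4734.5, 3232 and 3051 TPM in vehicle livers. Vehicle liver 1 was the high library, and the other 5 lay close together. Hpx was the carrier with a log2 difference below 0 (-0.21 ± 0.16 (SE), adjusted p = 0.641 in limma), and the difference was -0.02 without vehicle liver 1. Ttr (transthyretin, a thyroid hormone carrier), Rbp4 (the retinol carrier) and Gc (the vitamin D carrier) had log2 differences of 0.05, 0.00 and 0.02.

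Of the acute phase carriers, Hp (haptoglobin, which binds free hemoglobin) had 2689, 3113 and 2568 TPM in RECTAS livers, against 2671, 2797 and 2420.4 TPM in vehicle livers. Orm1 (orosomucoid, a carrier of small lipophilic molecules) had 1361, 1239 and 1398 TPM in RECTAS livers, against 1103, 1334 and 1210.35 TPM in vehicle livers. Its close copy Orm2 had 25.01, 30.1 and 39.7 TPM in RECTAS livers, against 28.9, 35.0 and 26.4 TPM in vehicle livers. The groups overlapped for all 3 genes, with log2 differences of 0.08 for Hp, 0.13 for Orm1 and 0.05 for Orm2 and adjusted p-values in limma of 0.779 for Hp, 0.6 for Orm1 and 0.936 for Orm2. Orm1 stood 35.2 to 54.4 times above Orm2 in the 6 liver libraries. Their mRNAs are 91.0% identical, so the division of reads between them is uncertain.

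Of the lipoprotein proteins, Apoc3, an inhibitor of lipoprotein lipase, had 5359.7, 5163 and 4675 TPM in RECTAS livers, against 4232, 4716 and 4369 TPM in vehicle livers. RECTAS liver 3 lay below vehicle liver 2, so the groups overlapped. The log2 difference of 0.19 ± 0.08 (SE) had the smallest unadjusted p of the members above 0 (0.0565) and an adjusted p of 0.447 in limma. Apoa2 (a protein of high-density lipoprotein) had 15342, 16052.5 and 16044 TPM in RECTAS livers, against 12842, 15339 and 15719.9 TPM in vehicle livers. Apoc4, a minor apolipoprotein, had 1424, 1396 and 1305 TPM in RECTAS livers, against 1178, 1339 and 1360.3 TPM in vehicle livers. In both genes vehicle liver 1 was the lowest of 6 libraries and the groups overlapped, with log2 differences of 0.12 for Apoa2 and 0.09 for Apoc4, each 0.03 without that library.

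Apoc1, the neighbour of Apoc4 on chromosome 7 and a small protein of triglyceride-rich particles, had 12839, 11351 and 12929.6 TPM in RECTAS livers, against 17348, 12922 and 13084 TPM in vehicle livers. Vehicle liver 1 was again the library apart, here as the highest. The log2 difference was -0.21 ± 0.13 (SE, adjusted p = 0.565 in limma) and lay at -0.07 without that library. Apoa1 (the main protein of high-density lipoprotein), Apob (the backbone of lipoproteins secreted by liver and gut) and Apoh (beta-2-glycoprotein I, which binds anionic phospholipids) had log2 differences of -0.06, -0.01 and -0.07, all with overlapping groups.

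The serum amyloid A genes encode apolipoproteins of high-density lipoprotein, of which Saa1 and Saa2 are major acute phase reactants and Saa4 is the constitutive form. Saa1 (chr7:46740497-46742980, minus strand, GRCm38) had 49.9, 56.6 and 69.6 TPM in RECTAS livers, against 109.7, 78.0 and 42.8 TPM in vehicle livers. Saa2 (chr7:46751790-46754313, plus strand) had 25.9, 23.1 and 47.7 TPM in RECTAS livers, against 55.7, 39.7 and 24.2 TPM in vehicle livers. The vehicle livers spanned a wider range than the RECTAS livers for Saa1, and vehicle liver 3 was the lowest of the 6, so the groups overlapped. The log2 differences were -0.30 ± 0.32 for Saa1 and -0.29 ± 0.36 for Saa2 (SE), with adjusted p-values of 0.752 for Saa1 and 0.784 for Saa2 in limma. Without vehicle liver 1 the difference was 0.01 for Saa1 and -0.02 for Saa2. Saa4 had 155, 195 and 196 TPM in RECTAS livers, against 251, 186 and 168 TPM in vehicle livers, with a log2 difference of -0.14 ± 0.17 (SE), 0.03 without vehicle liver 1.

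The promoters of Saa1 and Saa2 are shown because the 2 genes lie next to each other in opposite directions, are 95.3% identical over the 300 bases of promoter and 93.9% over the mRNA, and differ in level between tissues as described further on. Both are from RefSeq, GRCm38.p6, the 250 bases before the start: chr7:46742981-46743230 on the minus strand for Saa1 and chr7:46751583-46751832 on the plus strand for Saa2. The start is that of RefSeq, which for Saa2 lies inside the gene span given above. Capitals mark matches on either strand of the C/EBP pattern TTNNGNAA, at -182 and -86 in Saa1 and at -183 in Saa2.
Saa1: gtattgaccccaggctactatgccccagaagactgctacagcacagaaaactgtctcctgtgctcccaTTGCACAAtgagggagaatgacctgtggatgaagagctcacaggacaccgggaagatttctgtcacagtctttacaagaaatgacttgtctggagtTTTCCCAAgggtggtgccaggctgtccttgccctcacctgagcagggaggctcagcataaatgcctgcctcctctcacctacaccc
Saa2: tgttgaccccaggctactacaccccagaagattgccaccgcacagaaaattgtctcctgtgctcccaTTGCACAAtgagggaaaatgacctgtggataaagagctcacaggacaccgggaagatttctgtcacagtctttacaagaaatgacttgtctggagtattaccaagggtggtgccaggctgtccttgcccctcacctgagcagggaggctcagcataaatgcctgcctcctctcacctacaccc

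The pattern TTNNGNAA is short and was in 40.7% of all promoters and in 21 of the 30 members matched. The shown matches of a motif do not overlap each other.

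Among the protease inhibitors are the 4 Serpina1 genes, mouse copies of alpha-1-antitrypsin, an inhibitor of neutrophil elastase. Their mRNAs are 84.3% to 96.4% identical over the full alignment, where gaps count as differences. The pairs with Serpina1a, at 84.3% to 84.9%, are the lowest. Its transcript has 1581 bases and the others have 1361 to 1394. The summed level of the 4 genes is therefore the safer value. It was 27083, 26690.1 and 24681 TPM in RECTAS livers, against 28511.5, 26874 and 26031 TPM in vehicle livers. The groups overlapped, and each copy had a log2 difference between -0.07 and -0.04. Serpina3k, a relative of alpha-1-antichymotrypsin, had 9201, 9276 and 5694 TPM in RECTAS livers, against 4370.5, 7471 and 8097 TPM in vehicle livers. Each group had 1 low library, and the log2 difference of 0.29 ± 0.28 (SE) was within the spread (adjusted p = 0.719 in limma). It was 0.02 without vehicle liver 1, the lowest of the 6, and 0.53 without RECTAS liver 3.

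Ahsg (fetuin A, an inhibitor of mineral deposition) had 17079.9, 18225 and 14517 TPM in RECTAS livers, against 14337, 17086 and 18576 TPM in vehicle livers. The groups spanned nearly the same range, and the log2 difference was 0.00 ± 0.13 (SE, adjusted p = 0.995 in limma). Its neighbour Fetub (fetuin B) had 471.1, 470.6 and 476.6 TPM in RECTAS livers, against 476.8, 481.3 and 490.8 TPM in vehicle livers. The groups did not overlap, with the highest RECTAS liver just below the lowest vehicle liver, and the log2 difference was -0.03 ± 0.06 (SE, adjusted p = 0.873 in limma). Itih3 and Itih4 (heavy chains of inter-alpha-inhibitors) and Ambp (the precursor of their light chain, bikunin) had log2 differences of -0.17, -0.07 and -0.05.

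Fgg and Fgb, both clotting genes, held the lowest p-values of the list. Fga, Fgb and Fgg encode the chains of fibrinogen, the precursor of the fibrin clot and an acute phase protein, and lie side by side on chromosome 3. Fgg (chr3:83007724-83015049, plus strand, GRCm38) had 3650.1, 3761 and 2971 TPM in RECTAS livers, against 4502, 3843 and 4167 TPM in vehicle livers. Fgb (chr3:83040141-83049863, minus strand) had 2123, 2279 and 1827 TPM in RECTAS livers, against 2652, 2289.6 and 2432 TPM in vehicle livers. For both genes every RECTAS liver was below every vehicle liver, with RECTAS liver 3 the lowest and vehicle liver 1 the highest. Fga (chr3:83026076-83033627, plus strand) had 3770.4, 4042 and 3060.0 TPM in RECTAS livers, against 4601, 3855 and 4218 TPM in vehicle livers, and RECTAS liver 2 lay above vehicle liver 2.

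The log2 differences were -0.27 ± 0.11 for Fgg, -0.25 ± 0.10 for Fgb and -0.23 ± 0.12 for Fga (SE). The unadjusted p-values were 0.0449 for Fgg, 0.0486 for Fgb and 0.106 for Fga, and none passed in limma after adjustment (0.423 for Fgg, 0.429 for Fgb and 0.522 for Fga). Without RECTAS liver 3 the differences were -0.17 for Fgg, -0.16 for Fgb and -0.11 for Fga. Across the alternatives tried, the adjusted p of Fgg ranged between 0.39 and 0.94. The chains kept a near constant ratio in each of the 6 liver libraries: Fga over Fgb was 1.68 to 1.78 and Fgg over Fgb was 1.63 to 1.72. The 3 genes are therefore not independent observations.

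The fibrinogen promoters are shown because these genes kept a near constant ratio over the libraries. They are from RefSeq, GRCm38.p6, the 250 bases before the start: chr3:83025903-83026152 on the plus strand for Fga, chr3:83049864-83050113 on the minus strand for Fgb and chr3:83007474-83007723 on the plus strand for Fgg. The start is that of RefSeq, which for Fga lies inside the gene span given above. Capitals mark matches on either strand of the STAT pattern TTCNNGGAA (at -234 in Fga and -162 in Fgb) and of GTTAAT (at -43 in Fga and -29 in Fgb).
Fga: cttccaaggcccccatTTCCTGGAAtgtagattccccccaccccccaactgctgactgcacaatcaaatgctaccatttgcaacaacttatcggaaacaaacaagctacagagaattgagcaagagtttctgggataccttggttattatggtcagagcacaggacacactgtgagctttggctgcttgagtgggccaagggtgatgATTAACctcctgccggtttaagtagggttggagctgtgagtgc
Fgb: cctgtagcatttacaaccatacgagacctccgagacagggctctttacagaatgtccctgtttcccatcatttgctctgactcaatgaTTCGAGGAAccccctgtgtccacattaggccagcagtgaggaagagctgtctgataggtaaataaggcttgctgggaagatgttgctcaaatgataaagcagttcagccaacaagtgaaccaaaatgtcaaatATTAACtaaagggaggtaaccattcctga
Fgg: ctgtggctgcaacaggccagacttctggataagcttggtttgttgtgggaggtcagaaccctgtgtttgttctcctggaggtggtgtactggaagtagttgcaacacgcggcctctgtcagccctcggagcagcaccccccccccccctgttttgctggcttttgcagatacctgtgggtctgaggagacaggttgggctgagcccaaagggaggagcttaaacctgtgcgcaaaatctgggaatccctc

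TTCNNGGAA was in 4 of the 30 members with a promoter entry (Fga, Fgb, Itih4 and Vtn) and in 4.8% of all promoters. Neither pattern was found in the window of Fgg.

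Plg (plasminogen, whose active form dissolves fibrin) had 1400.15, 1461 and 1373 TPM in RECTAS livers, against 1646, 1523 and 1504 TPM in vehicle livers. Kng1 (kininogen, of the contact pathway and the source of bradykinin) had 1704, 1729.5 and 1769.9 TPM in RECTAS livers, against 1979.8, 1877 and 1777 TPM in vehicle livers. F2 (prothrombin) had 1302, 1313 and 1333 TPM in RECTAS livers, against 1377, 1385 and 1343 TPM in vehicle livers. All RECTAS livers were below all vehicle livers for these 3 genes, by small margins. The log2 differences were -0.14 ± 0.07 for Plg, -0.11 ± 0.07 for Kng1 and -0.06 ± 0.06 for F2 (SE), with adjusted p-values in limma of 0.489 for Plg, 0.561 for Kng1 and 0.749 for F2. Serpinc1 (antithrombin, which inhibits thrombin) had 3263 to 3309 TPM in RECTAS livers and 3139 to 3364 TPM in vehicle livers, and its log2 difference was 0.01.

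The complement and matrix genes were C3 (the central complement protein), Mbl2 (a lectin that starts the complement cascade) and Vtn (vitronectin, an adhesion protein of plasma). C3 had 3175, 3309 and 3369 TPM in RECTAS livers, against 4051, 3239.7 and 3461 TPM in vehicle livers. Vehicle liver 1 was the highest for C3, Vtn and Mbl2 alike, and the groups overlapped for each. The log2 differences were -0.12 for C3, -0.12 for Vtn and -0.05 for Mbl2, and without that library -0.03 for C3, -0.05 for Vtn and 0.03 for Mbl2.

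Further genes of the same pathways in liver gave 0 calls by limma in any list. Of 15 other clotting genes tested, all 15 had a log2 difference below 0, or 12 of 15 with median ratio scaling, and 4 had an unadjusted p under 0.05. The smallest were F11 (clotting factor XI), at 69.1 ± 4.79 TPM in RECTAS livers and 85.9 ± 8.31 TPM in vehicle livers, and Klkb1 (plasma prekallikrein), at 77.9 ± 7.59 TPM in RECTAS livers and 95.8 ± 5.54 TPM in vehicle livers (SD, n = 3 each). Of 18 other complement genes, 15 were below 0, or 13 of 18 with median ratio scaling, and 5 had an unadjusted p under 0.05, among them C8a (a subunit of the membrane attack complex), at 117 ± 15.0 TPM in RECTAS livers and 169.7 ± 22.7 TPM in vehicle livers. Of 32 other secreted hepatocyte proteins, 24 were below 0, or 18 of 32 with median ratio scaling, and 3 had an unadjusted p under 0.05. These counts stand beside the 60% of all genes below 0 and the 8.03% lower at an unadjusted p under 0.05. With median ratio scaling, 2 of 15 clotting genes and 2 of 18 complement genes had an unadjusted p under 0.05.

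Other acute phase genes were mixed, with 10 of 17 tested below 0. Lcn2 (lipocalin 2, an iron-sequestering acute phase protein) had 49.1 ± 12 TPM in RECTAS livers and 27.9 ± 5.38 TPM in vehicle livers (SD, n = 3 each), without overlap and with an adjusted p of 0.29 in limma. Il1rn (the interleukin 1 receptor antagonist) had 1.76 ± 0.56 TPM in RECTAS livers and 5.45 ± 2.68 TPM in vehicle livers, also without overlap (adjusted p = 0.27 in limma). Of 17 genes of acute phase signalling, 12 were below 0. Il1rap (a chain of the interleukin 1 receptor) had 51.6 ± 4.33 TPM in RECTAS livers and 69.5 ± 2.80 TPM in vehicle livers (adjusted p = 0.208 in limma). Cebpd, a C/EBP factor that acute phase cytokines raise, had 3.26 ± 0.739 TPM in RECTAS livers and 1.73 ± 0.499 TPM in vehicle livers (adjusted p = 0.302 in limma).

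Markers of other liver cells gave these values beside the members. Of 10 endothelial markers, 9 had a log2 difference below 0, beside 60% of all genes. Their summed level was 113 to 137 TPM in RECTAS livers and 127 to 162 TPM in vehicle livers, with 0 markers absent. Also below 0 were 7 of 11 macrophage, 4 of 8 stellate, 4 of 7 blood cell and 0 of 3 bile duct cell markers tested. The 11 macrophage markers summed to 297 to 535 TPM in RECTAS livers and 343 to 451 TPM in vehicle livers, with 0 absent. The 9 blood cell markers summed to 309 to 626 TPM in RECTAS livers and 384 to 553 TPM in vehicle livers, and Ly6g, a neutrophil marker, was listed at 0 in all 3 vehicle livers. Of 24 hepatocyte genes whose products stay in the cell, 16 were below 0 and 8 above, with a summed level of 20846 to 21669 TPM in RECTAS livers and 20820.1 to 23991 TPM in vehicle livers. The part of other cells in the members' values was not tested.

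In lung, the members showed liver-type RNA in very different amounts from library to library, in both groups. Alb had 0.81, 28.5 and 334 TPM in RECTAS lungs, against 9.07, 292 and 782 TPM in vehicle lungs. Each group had a low, a middle and a high library, in the order of the replicate numbers, and the groups overlapped. Expressed as a percentage of the mean TPM in vehicle liver, the median over the 39 members was 0.00899%, 0.0969% and 0.698% in RECTAS lungs, against 0.0444%, 0.611% and 1.71% in vehicle lungs.

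**Figure D3:**
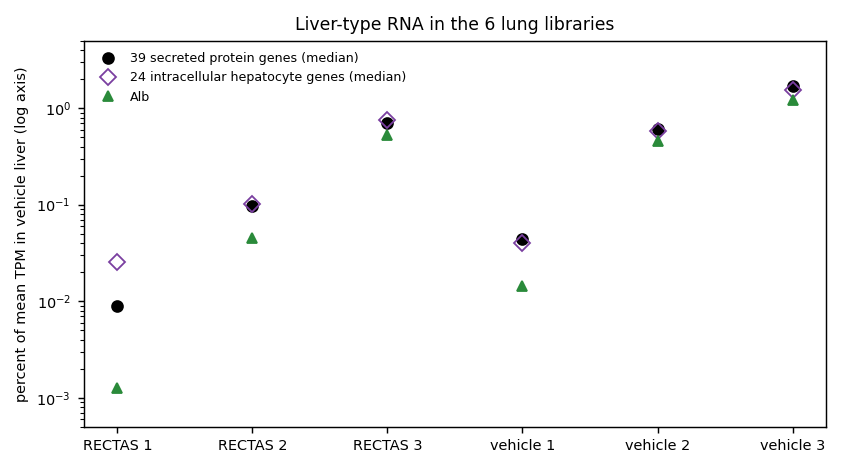
Level in each of the 6 lung libraries as a percentage of the mean TPM in vehicle liver, on a log axis: the median over the 39 members, the median over 24 hepatocyte genes with intracellular products, and Alb. All 3 measures are lowest in RECTAS 1 and highest in vehicle 3, and RECTAS 3 and vehicle 2 lie close together.

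Hepatocyte genes whose products are not secreted gave amounts close to those of the members in 5 of the 6 lungs and higher ones in RECTAS lung 1. The median over 24 such genes (enzymes and transporters of the liver) was 0.0255%, 0.101% and 0.757% in RECTAS lungs, against 0.0403%, 0.577% and 1.55% in vehicle lungs. The order of the libraries was shared as well: 38 of 39 members and 23 of 24 intracellular genes were highest in vehicle lung 3, which was the highest library for 1751 of the 15699 genes tested in lung. For 36 of 39 members the 3 highest libraries were vehicle 3, RECTAS 3 and vehicle 2. The exception among the members in its highest library was Saa2, which peaked in RECTAS lung 3 at 0.98 TPM.

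Between RECTAS lung 1 and vehicle lung 3, the lungs with the least and the most Alb, the median member gained 1.61% of its level in vehicle liver (quartiles 1.38% and 1.85%). Of 39 members, 37 gained within 2-fold of that median, as did all 24 intracellular genes around their own median of 1.39%. Hp, with a gain of 11.2%, and C3, with 0.379%, were the members outside. How liver-type RNA came to be in the lung libraries was not tested, and fewer cells of a type and less RNA per cell cannot be told apart in bulk tissue.

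A few members had a high level in all 6 lungs, also where Alb was lowest. Hp had 1120.3, 1199 and 1114 TPM in RECTAS lungs, against 1086.5, 1207 and 1414 TPM in vehicle lungs, which is 41.3% to 53.8% of its liver level and by far the highest percentage of any member. Trf had 452, 442 and 601 TPM in RECTAS lungs, against 436, 518 and 762 TPM in vehicle lungs. C3 had 179, 153 and 164 TPM in RECTAS lungs, against 139, 168 and 193 TPM in vehicle lungs. The highest lung library was less than 2-fold above the lowest for these 3 genes and Itih4, and their groups overlapped. Trf and Itih4 still gained between RECTAS lung 1 and vehicle lung 3 within 2-fold of the median member. Itih4 had 61.9, 52.7 and 63.9 TPM in RECTAS lungs, against 49.6, 47.1 and 79.2 TPM in vehicle lungs.

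Vtn had 20.6, 28.4 and 36.9 TPM in RECTAS lungs, against 22.2, 38.1 and 63.8 TPM in vehicle lungs, and so varied more, in the order of liver-type RNA within each group. Apoc1, Rbp4, Serpinc1 and Fetub were likewise present in RECTAS lung 1, where Alb was lowest, at 88.7 TPM for Apoc1, 34.1 TPM for Rbp4, 4.97 TPM for Serpinc1 and 4.49 TPM for Fetub. By contrast, 28 of 39 members differed more than 10-fold between lung libraries or were listed at 0 in at least 1 of them.

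**Figure D4:**
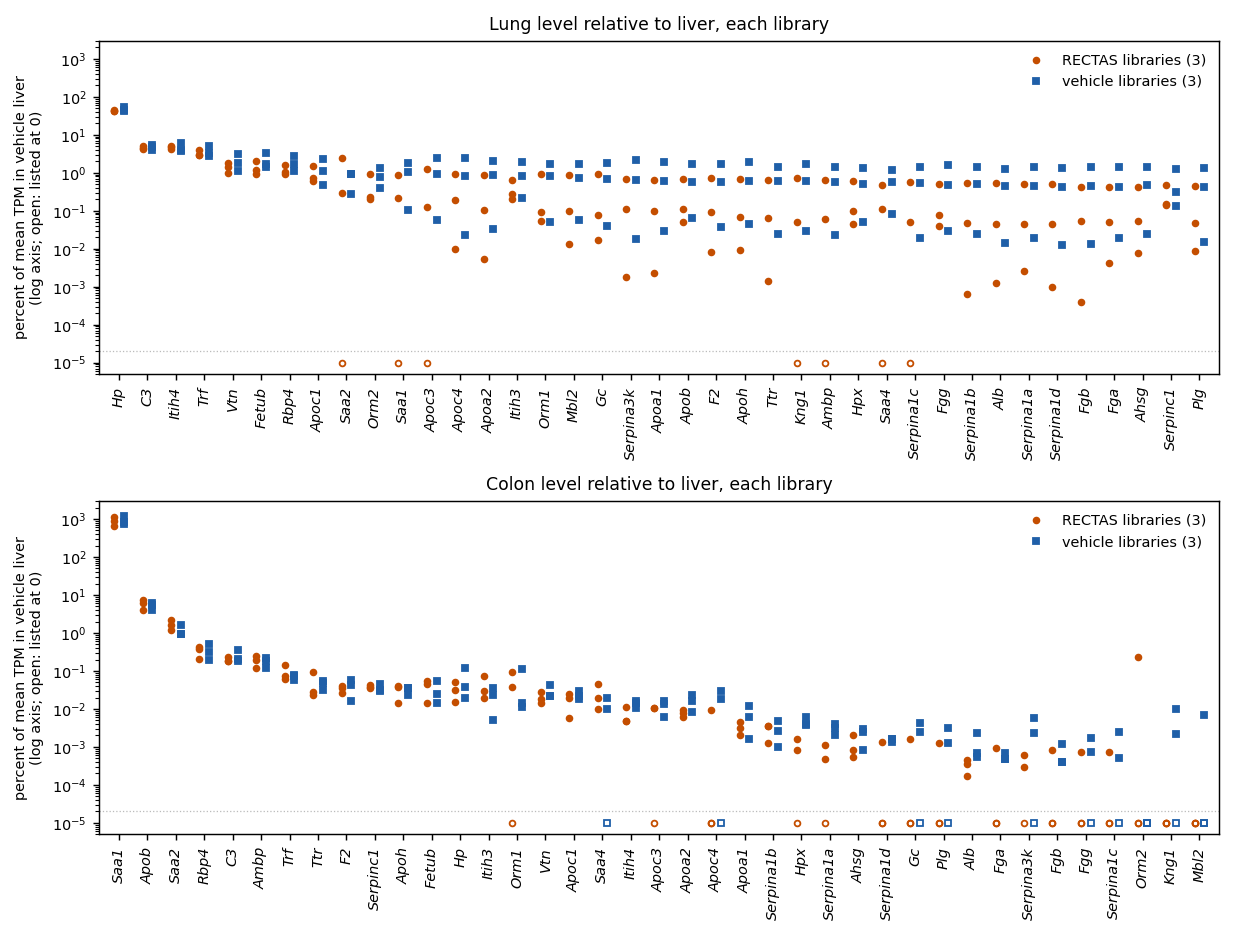
Each member's TPM in each lung library (top) and colon library (bottom) as a percentage of its mean TPM in vehicle liver, on log axes, with RECTAS libraries as circles and vehicle libraries as squares, members ordered by their median and open symbols for values listed at 0. In lung most members repeat 1 ladder of libraries while Hp, C3, Itih4 and Trf stay high in all 6, and in colon only Saa1 exceeds its liver level.

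Of the 39 members, 35 passed the filter on low values in lung (at least 1 TPM in 3 of 6 libraries), and limma called 0 of them, where 0.00637% of all 15699 genes were called. At an unadjusted p under 0.05 there were 0 lower members, beside 1.88% of all genes, and 0 higher ones, beside 10.7%. No member (0) had groups that did not overlap, beside 3.18% of genes with RECTAS lower and 16.1% with RECTAS higher. The log2 difference was below 0 for 33 of the 35, against 34.6% of all genes, and for 35 of 35 with median ratio scaling. The median was -1.22, against 0.06 for all genes. The 2 exceptions, Itih4 at 0.06 and C3 at 0.00, were among the genes high in all 6 lungs. The median was -0.32 without vehicle lung 3, -0.49 without RECTAS lung 1 and -2.58 without vehicle lung 1, where 13 of the 35 had an unadjusted p under 0.05, all lower. With a replicate block in limma 27 of the 35 had an unadjusted p under 0.05, all lower, and 0 were called. The share of all genes at that p was not counted without vehicle lung 1 or with the block. As 36 of 39 members shared their 3 highest lung libraries, the members are not independent observations. For Alb the log2 difference was -2.34 ± 2.2 (SE), with an adjusted p of 0.682 in limma.

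The other hepatocyte lists had the sign of the members in lung: 27 of 28 other secreted hepatocyte genes tested and 21 of 23 intracellular hepatocyte genes were below 0. Fewer genes passed the filter without vehicle lung 3. There, 13 of 19 other secreted genes (median -0.10) and 5 of 10 intracellular genes (median 0.02) were below 0, beside 27 of 32 members. Lists that lung cells can also express lay on either side of the 34.6% of all genes below 0. Below 0 were 9 of 16 other complement genes and 2 of 8 macrophage, 0 of 8 endothelial and 2 of 7 stellate markers. With median ratio scaling 5 of 8 macrophage and 1 of 8 endothelial markers were below 0. Of the blood cell markers, 7 of 8 were below 0, with a summed level of 5947 to 9594 TPM in RECTAS lungs and 6650.5 to 10856 TPM in vehicle lungs. Without RECTAS lung 1, 2 of these 8 were below 0, and 6 to 8 were without any other single library. All 7 markers of alveolar type II cells, which make surfactant, were above 0, in a tissue where 34.6% of all genes were below 0. Their summed level was 40540.2 to 44419 TPM in RECTAS lungs and 35863 to 39373 TPM in vehicle lungs, with 0 markers absent. Of 17 acute phase signalling genes, 16 were above 0 in lung, 7 of them at an unadjusted p under 0.05, where 10.7% of all genes were higher, and 0 were called by limma. With median ratio scaling these counts were 14 and 5, and with quantile normalisation 13 and 4. In a single fit of all 18 libraries they were 16 and 6, and limma called 1 of the genes, beside 37 of all 15699 genes. The part of these lists in the members' values was not tested.

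In colon, liver-type RNA was low in all 6 libraries, and 1 acute phase gene stood above its liver level. Alb had 0.28, 0.23 and 0.11 TPM in RECTAS colons, against 0.43, 0.35 and 1.48 TPM in vehicle colons. The median over the 39 members was 0.00475% to 0.0095% of the liver level in RECTAS colons and 0.00841% to 0.0145% in vehicle colons. Without the 6 members more than 10 times above the vehicle median (Saa1, Apob, Saa2, Rbp4, C3 and Ambp) it was 0.00111% to 0.00346% in RECTAS colons and 0.00205% to 0.00683% in vehicle colons. For the 24 intracellular hepatocyte genes it was 0.0194% to 0.0333% in RECTAS colons and 0.0188% to 0.0327% in vehicle colons.

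Saa1 had 691, 856 and 517 TPM in RECTAS colons, against 638, 898 and 566 TPM in vehicle colons. Every colon library lay above every liver library, with the vehicle colons at a mean of 912% of the vehicle liver mean. The groups overlapped, and the log2 difference was -0.03 ± 0.23 (SE, adjusted p = 1.0 in limma). Saa2, the near copy of Saa1, had 0.86, 0.49 and 0.65 TPM in RECTAS colons, against 0.37, 0.38 and 0.65 TPM in vehicle colons. Saa1 was 795 to 2364 times Saa2 in the 6 colons, and 1.46 to 2.45 times Saa2 in the 6 livers. Reads of such similar genes can be divided between them in ways the values do not show. The division of reads was not tested in either tissue. Saa4, the highest of the 3 in liver, was at most 0.09 TPM in RECTAS colons and 0.04 TPM in vehicle colons.

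**Figure D5:**
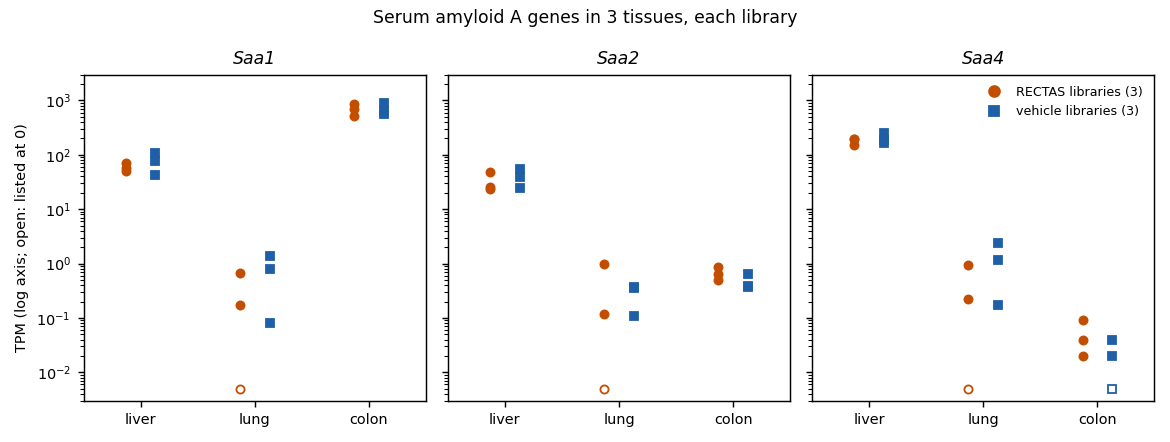
TPM of Saa1, Saa2 and Saa4 in each liver, lung and colon library on a log axis, with RECTAS libraries as circles left of vehicle libraries as squares and open symbols for values listed at 0. Saa1 is highest in colon, at 517 to 898 TPM, whereas Saa2 and Saa4 are highest in liver, and RECTAS and vehicle overlap in each tissue.

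Of the other members, Apob, which enterocytes use to build chylomicrons, had 44.2, 68.9 and 81.2 TPM in RECTAS colons, against 44.9, 61.3 and 67.8 TPM in vehicle colons, or 3.92% to 7.22% of its liver level. Rbp4 had 15.4, 13.8 and 7.77 TPM in RECTAS colons, against 19.3, 7.28 and 11.7 TPM in vehicle colons. C3 had 8.27, 6.5 and 6.62 TPM in RECTAS colons, against 7.63, 12.5 and 6.72 TPM in vehicle colons. The groups overlapped for all 3 genes. Orm2, Kng1 and Mbl2 were listed at 0 in most colon libraries.

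Of the 39 members, 10 passed the filter in colon, and limma called 0 of them, where 0% of the 14282 genes tested were called. At an unadjusted p under 0.05 there were 0 lower members, beside 0.812% of all genes, and 0 higher ones, beside 0.805%. None (0) had groups that did not overlap, beside 2.01% of genes with RECTAS lower and 3.43% with RECTAS higher. The log2 difference was below 0 for 6 of the 10, beside 42.8% of all genes.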

How the data were processed

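The 18 libraries were made from polyadenylated RNA with a stranded mRNA kit, per the labels' protocols. The authors deposited 1 gene-level TPM value per gene and library. Per the submitters' processing notes, the tools were HISAT2 2.2.0 and RSEM 1.3.0 and the build was GRCm38, with no role or order stated. The annotation release is not given in the sources used here. TPM keeps no read depth, so no counting interval could be given. No pair of libraries was identical (0). The test, run per tissue on log2(TPM + 1), was limma's two-sided moderated test (limma 3.58.1, R 4.3.3) with a trend of variance on mean. It took genes that reached 1 TPM in 3 or more of the 6 libraries, with Benjamini-Hochberg adjustment over all genes kept and a threshold of 0.05. The scale understates changes of low genes. The script was tested on simulated data.

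The liver percentage of a lung or colon value is its TPM over the gene's mean TPM in the 3 vehicle livers. Gene positions are from GENCODE M21 and promoters from RefSeq, which place the starts of Alb, Fga and Saa2 differently. Identities are from global alignments (Biopython 1.88) of 1 transcript per gene. The members and lists were chosen with earlier results of these data known. Values per library were given for the 5 members highest in vehicle liver, the 5 per direction with the smallest p in liver, the acute phase members, and Alb with the 5 highest percentages in lung and colon. Of the pathway lists, up to 2 genes with the smallest p were named. Members named beyond this rule (Hpx, Fetub, F2, C3 in liver and Serpina3k among them) were chosen after their values were seen. Groups came from the labels. The main test did not pair libraries by replicate number. Deviations of same-numbered libraries correlated at 0.028, -0.014 and -0.021 in liver, 0.409, -0.065 and 0.317 in lung, and 0.354, -0.294 and 0.039 in colon. Differently numbered libraries correlated between -0.104 and 0.129 in liver, -0.388 and 0.075 in lung, and -0.451 and 0.454 in colon. Whether same-numbered lung libraries shared an animal or a batch was not tested. Alternatives were other pseudocounts, filters and scalings, a single fit of all 18 libraries, a replicate block and each library left out.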

Additional observations from a re-analysis of the deposited data

Results flagged for a closer look

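In 2 pathway or marker genes the liver groups and the lung groups were apart in opposite directions. Over all genes tested, 13% were apart with RECTAS lower in liver and 16.1% with RECTAS higher in lung. The share of all genes with both patterns was not counted, so the 2 genes have no background beside them and are given as a description. Il1rap, a chain of the interleukin 1 receptor, was lower in all RECTAS livers than in all vehicle livers and higher in all RECTAS lungs than in all vehicle lungs. Its liver difference minus its lung difference was -0.54 on the log2 scale, with an adjusted p of 0.181 over 11301 genes in limma. Lyve1, a marker of liver sinusoidal and lymphatic endothelium, had the same pattern, with -1.04 and an adjusted p of 0.197. Neither passed the threshold, nor did the complement gene C6, with -0.86 and a lower adjusted p of 0.114 in limma.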

How the results depend on the processing

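In each of 48 alternatives across the 3 tissues, 0 members were called by limma. Over all genes, the calls were 2 in liver, 1 in lung and 0 in colon, and 134 in liver, 37 in lung and 2 in colon in a single fit of all 18 libraries. The replicate block left 0 members called and 0 genes called in liver. In lung 27 of 35 members then had an unadjusted p under 0.05, and the share of all genes was not counted. The median log2 difference of the members in liver was -0.0015 with median ratio scaling and between -0.0698 and -0.0194 with 1 library left out. Of 270 values of 18 named members, 259 kept their sign, and 11, in 5 members, did not. Ahsg was at 0.0639 with quantile normalisation, 0.0475 with median ratio scaling and 0.0123 rescaled without mitochondrial genes and members. Apoc4 was at -0.0011 with quantile normalisation. With 1 library left out, Ahsg lay between -0.1078 and 0.0904, Saa1 between -0.6609 and 0.0077, Saa4 between -0.2571 and 0.0321 and Orm2 between -0.118 and 0.2047. The median percentage of the liver level in lung lay between 0.09693% and 0.6111% with 1 library left out. In colon it was between 0.008405% and 0.009499%, 0.002755% without the 6 members above 10 times the median, and 0.0273% for intracellular hepatocyte genes. The cause of these shifts was not tested.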
